A study of Mus musculus with 6 samples.

Results

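Insulin-like growth factor 1 (IGF1) signaling and the IGF binding proteins were examined through 10 genes of the 55401 in the count tables, chosen by name: *Igf1*, *Igf1r*, *Irs1*, *Igfals*, *Igfbp2*, *Igfbp3*, *Igfbp4*, *Igfbp5*, *Igfbp6* and *Igfbp7*. RNA was extracted from whole tibias of male mice at 8 weeks of age and sequenced as 6 libraries, 1 per mouse, to ask how loss of the chromatin remodeler ATRX in the osteoblast lineage changes gene expression in bone. The 3 control mice carried a floxed *Atrx* allele and no Cre (*Atrx f/y*). The 3 Atrx-cKO mice carried the same allele with *Osterix-Cre*, a Tet-off transgene in which *Sp7* (Osterix) regulatory sequence drives Cre in preosteoblasts and their descendants, and which doxycycline kept off from conception to 3 weeks of age. Only the Atrx-cKO mice, and all 3 of them, had the transgene, so an effect of *Atrx* loss and an effect of the transgene cannot be told apart in these libraries.

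IGF1 is made by the liver in response to growth hormone and also locally by bone cells and many other tissues. It binds the receptor tyrosine kinase IGF1R, which phosphorylates the adaptor IRS1 and so activates the PI3K-AKT and MAPK pathways, and in bone it supports osteoblast function, matrix deposition and longitudinal growth. The IGF binding proteins hold IGFs in the circulation and in the matrix and can limit or extend their action, and proteases that cut them release the ligand.

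Counts assigned to genes ranged from 50977777 to 70571655 per library, so that 3 counts corresponded to 0.0425 to 0.0588 CPM before TMM scaling. All other CPM values are counts scaled to a common library size after TMM scaling. *Atrx* itself was measured at 163 ± 9.54 CPM in Atrx-cKO and 169 ± 4.98 CPM in control tibias (SD, n = 3), and its log2 fold change was -0.05 (95% interval -0.23 to 0.14). These counts cover the whole gene and not the floxed exon alone, and the tibia holds many cells outside the Cre lineage, so they do not check the genotype labels. Summed levels of 12 skeletal muscle markers ran from 804 to 2805 CPM in 5 libraries and reached 13891 CPM in control replicate 3. The 8 osteoblast markers summed to between 108816 and 118325 CPM in 4 libraries, and to 185200 and 166259 CPM in control replicates 2 and 3. All 8 osteoblast markers had a negative log2 fold change, beside 10064 of 20636 tested genes, and 0 of the 8 were called by edgeR. Negative values also held for 7 of 7 osteoclast and 11 of 12 muscle markers, but for 0 of 7 neutrophil and 0 of 5 endothelial markers. The 9 chondrocyte markers were also highest in control replicates 2 and 3, at 7380 and 6490 CPM against 3703 to 4149 CPM. Whole tissue was sequenced, so fewer cells of a type and less RNA per cell cannot be told apart for any value given here.

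All 10 genes passed the filter on low counts, and 0 of the 10 differed between genotypes at an adjusted p under 0.05 in edgeR, where 3 of 20636 tested genes (0.0145%) did. By DESeq2, 0 of the 10 were called, against 0.157% of all tested genes. At an unadjusted p under 0.05, edgeR passed 1 of the 10, *Igfbp5*, against 3.64% of all tested genes, and DESeq2 passed 2, *Igfbp5* and *Igfbp6*, against 4.02%. Fold changes were positive for 5 genes and negative for 5, with a median of -0.05 on the log2 scale beside 0.0050 for all tested genes. The 3 libraries of one genotype lay entirely to one side of the other for 2 of the 10, *Igfbp4* above and *Igfbp5* below, against 8.31% of all tested genes (4.3% higher and 4.01% lower).

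**Figure D1:**
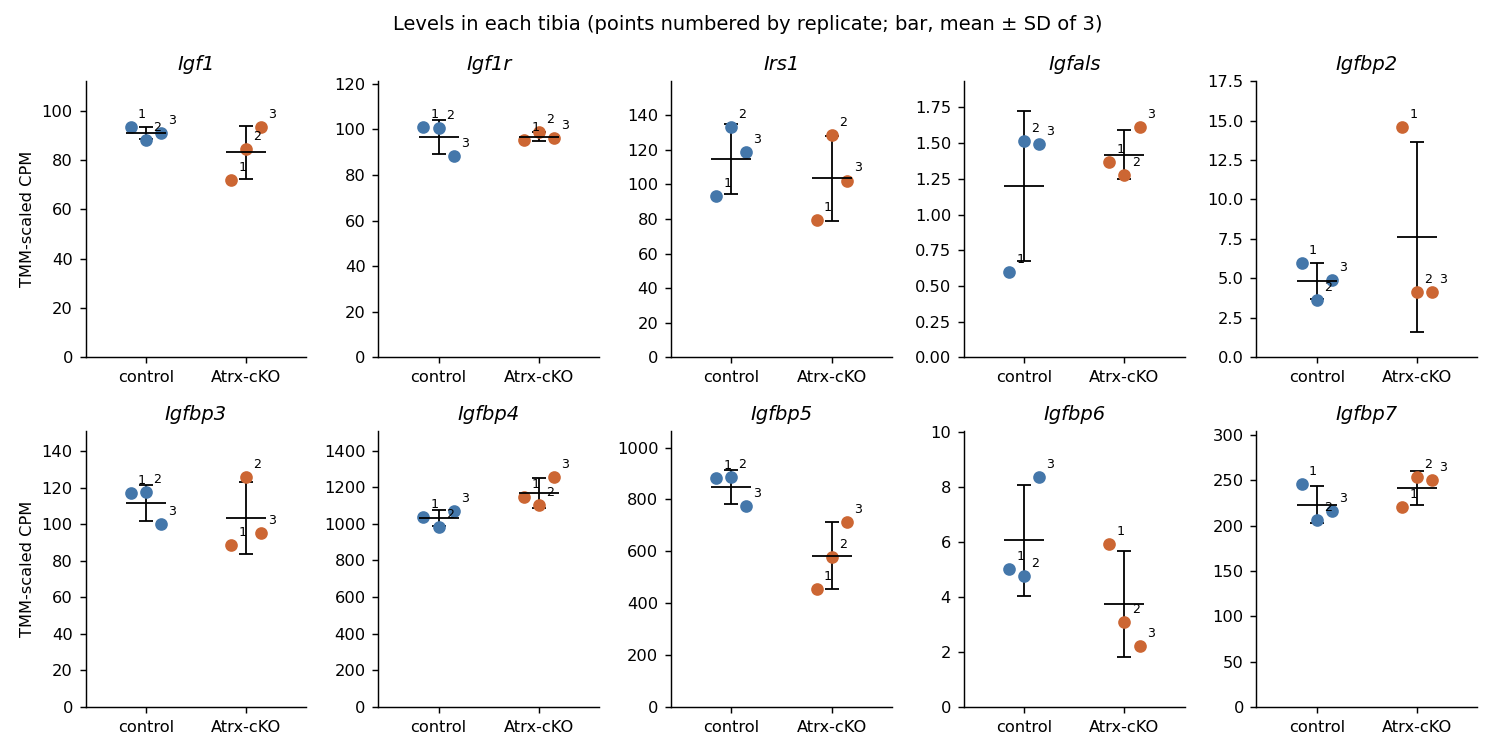
TMM-scaled CPM (vertical axes, starting at 0) of the 10 genes in 3 control (blue) and 3 Atrx-cKO (orange) tibias, each point 1 library numbered by replicate, with the mean and SD as bars. The *Igfbp5* points of the Atrx-cKO libraries, 455 to 714 CPM, all lie below the control points, 774 to 887 CPM, while a single Atrx-cKO library carries the high *Igfbp2* mean.

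*Igfbp5* (chr1:72857932-72874884, minus strand, GRCm38) encodes a binding protein that is stored in bone matrix. It was measured at 455, 579 and 714 CPM in Atrx-cKO replicates 1 to 3 and at 884, 887 and 774 CPM in control replicates 1 to 3. Every Atrx-cKO library was below every control library, and the gap between the nearest of them, 714 and 774 CPM, was small beside the range within Atrx-cKO. The means were 583 ± 130 and 848 ± 64.7 CPM (SD, n = 3), a log2 fold change of -0.54 (SE 0.17, 95% interval -0.93 to -0.16) or 0.687-fold. The edgeR test gave an unadjusted p of 0.0121 and an adjusted p of 0.992 over all tested genes, and DESeq2 gave 0.000959 and 0.225. The direction was the same when each library was left out, with log2 fold changes from -0.72 to -0.39 in edgeR and adjusted p of 0.453 or more. DESeq2 called the gene only in the fit without Atrx-cKO replicate 3, at a log2 fold change of -0.72 and an adjusted p of 0.00956. The 2 highest osteoblast marker sums were in control replicates 2 and 3, and the lowest, 108816 CPM, was in control replicate 1. Such sums weigh the most abundant markers most, 1 of which reached 6162748 counts. Taken singly, all 8 osteoblast markers had a negative log2 fold change (median -0.27). Of the 8, 1 had an unadjusted edgeR p under 0.05, beside 3.64% of all tested genes. Groups did not overlap for 1, beside 8.31%. With the log2 muscle marker sum as a covariate, the edgeR log2 fold change of *Igfbp5* was -0.62 (SE 0.15), and the gene was not called. That sum was by far highest in control replicate 3, and leaving out this library also gave -0.62 in edgeR. The covariate fit therefore says little beyond that library. The part of cell makeup, osteoblast and muscle content included, in the *Igfbp5* difference was not tested.

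*Igfbp4* (chr11:99041244-99054392, plus strand), the most abundant of the binding protein mRNAs here, encodes a protein that holds IGFs until the protease PAPP-A cuts it. It was measured at 1144, 1101 and 1257 CPM in Atrx-cKO and at 1039, 985 and 1071 CPM in control tibias. The groups did not overlap, yet the difference was small: 1168 ± 80.5 against 1032 ± 43.6 CPM (SD, n = 3), a log2 fold change of 0.18 (SE 0.098, 95% interval -0.05 to 0.41) with an unadjusted edgeR p of 0.108. The direction held without each library, from 0.12 to 0.21.

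*Igfbp5* and *Igfbp4* were the 2 genes whose groups did not overlap, and the sequence upstream of each is shown for reference. Below are the 250 bases before the RefSeq transcription start (GRCm38.p6), read 5′ to 3′ on the gene's strand, at chr1:72874866-72875115 for *Igfbp5* (minus strand) and chr11:99040994-99041243 for *Igfbp4* (plus strand). Capitals mark matches to any of 4 motifs searched on both strands, which do not overlap one another in these windows. The TATA box was spelled TATAAA. The GC box bound by SP family factors was spelled GGGCGG. The consensus of the RUNX family was spelled TGNGGTT. A related G-rich box was spelled GGGAGGG.
Igfbp5: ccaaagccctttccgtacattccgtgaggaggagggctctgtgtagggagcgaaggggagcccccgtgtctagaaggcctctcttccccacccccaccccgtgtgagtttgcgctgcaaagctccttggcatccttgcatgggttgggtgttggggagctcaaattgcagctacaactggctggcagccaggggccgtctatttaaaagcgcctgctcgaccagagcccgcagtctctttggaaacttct
Igfbp4: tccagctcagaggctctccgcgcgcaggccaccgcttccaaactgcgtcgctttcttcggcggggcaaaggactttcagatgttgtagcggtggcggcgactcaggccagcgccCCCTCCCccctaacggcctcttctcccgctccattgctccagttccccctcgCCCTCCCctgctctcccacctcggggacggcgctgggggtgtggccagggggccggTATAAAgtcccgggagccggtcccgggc
The *Igfbp4* window held TATAAA, beginning 28 bases before the start, and GGGAGGG on the other strand at 2 places. The *Igfbp5* window held none of the 4 motifs, which says only that these letters are not in those 250 bases. Upstream windows were found for all 10 genes, 13 windows in all. *Igfals* had 3 of these windows and *Igfbp2* had 2. TATAAA was in 2 of the 13 windows (*Igfbp4* and *Igfbp6*) and in 12.4% of all 32851 windows. GGGCGG was in 6 of the 13, from 5 genes (*Igf1r*, *Igfals*, *Igfbp2*, *Igfbp7* and *Irs1*), and in 32.7% of all windows. GGGAGGG was in 7 of the 13, from 4 genes (*Igfals*, *Igfbp2*, *Igfbp4* and *Igfbp7*), and in 19.7% of all windows. TGNGGTT was in 1 of the 13 (*Igfbp3*) and in 12.6% of all windows.

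*Igfbp6* (chr15:102144362-102149511, plus strand) encodes a binding protein that prefers IGF2. It was low, at 5.93, 3.08 and 2.22 CPM in Atrx-cKO and 5.03, 4.77 and 8.38 CPM in control tibias. The groups overlapped through Atrx-cKO replicate 1, which was above 2 of the 3 controls. The log2 fold change was -0.69 (SE 0.39, 95% interval -1.59 to 0.21), with an unadjusted p of 0.113 in edgeR and 0.0415 in DESeq2. Without Atrx-cKO replicate 1 the log2 fold change was -1.19. The unadjusted p without that library was 0.0088 in edgeR and 0.000235 in DESeq2, and the adjusted p 0.999 and 0.0974. At the other end of the range, the log2 fold change was -0.40 without control replicate 3. That control library also had the highest summed level of the 6 tendon and fibroblast markers, 353 CPM against 175 to 264 CPM in the others, and the highest muscle sum. With the log2 muscle marker sum as a covariate, the edgeR log2 fold change of *Igfbp6* was -0.52 (SE 0.27). The part of tendon and fibroblast tissue in the *Igfbp6* value was not tested. *Igfbp6* ends 207 kb before *Sp7*, whose regulatory sequence drives the transgene. The 7 tested genes nearest to it on that side had log2 fold changes of -0.12 to 0.22. Nearer to *Sp7*, the neighboring genes *Pfdn5*, *Myg1* and *Aaas* were at 0.69, 0.73 and 0.79, with DESeq2 adjusted p of 1.75e-06, 6.70e-06 and 1.74e-05, but edgeR adjusted p of 0.225, 0.236 and 0.265.

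*Igfbp2* (chr1:72824503-72852474, plus strand) encodes a binding protein that circulates and is also made by marrow and bone cells. It was measured at 14.6, 4.15 and 4.16 CPM in Atrx-cKO and 5.96, 3.65 and 4.89 CPM in control tibias. A single library, Atrx-cKO replicate 1, was far above the other 5, which lay between 3.65 and 5.96 CPM. The log2 fold change of 0.66 (95% interval -0.50 to 1.82) became -0.22 without that library. *Igfbp2* and *Igfbp5* lie tail to tail on chromosome 1 with 5457 bases between their ends. Atrx-cKO replicate 1 was at once the highest library for *Igfbp2* and the lowest for *Igfbp5*. The Pearson correlation of log2(CPM + 0.5) between the 2 genes was -0.70 over the 6 libraries and 0.29 without that library.

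*Igfbp3* (chr11:7206086-7213923, minus strand), whose product carries most circulating IGF1, was measured at 88.7, 126 and 95.3 CPM in Atrx-cKO and 117, 118 and 100 CPM in control tibias. The Atrx-cKO libraries spanned the whole control range, and the log2 fold change was -0.11 (95% interval -0.44 to 0.22). It was -0.013 without Atrx-cKO replicate 1, and -0.29 without Atrx-cKO replicate 2, at an unadjusted edgeR p of 0.0432. *Igfbp7* (chr5:77349240-77408041, minus strand), whose product is a secreted matrix protein that binds IGFs weakly, was measured at 220, 254 and 251 CPM in Atrx-cKO and 246, 206 and 216 CPM in control tibias. Its groups overlapped, with a log2 fold change of 0.12 (95% interval -0.12 to 0.35). Its exons share 85 bases with *Polr2b* on the opposite strand, of 1209 in all, and whether the counting used strand is not given in the sources used here.

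*Igf1* (chr10:87858265-87937042, plus strand), the ligand, was measured at 71.9, 84.3 and 93.3 CPM in Atrx-cKO and 93.3, 88.3 and 91.0 CPM in control tibias. Control libraries were close together, with a coefficient of variation of 2.79%, while Atrx-cKO libraries varied by 12.9%. The log2 fold change was -0.13 (SE 0.10, 95% interval -0.37 to 0.11), and it shrank to -0.03 without Atrx-cKO replicate 1. Markers of hepatocytes, the main source of circulating IGF1, summed to at most 0.23 CPM in every library, and 4 of the 5 were at 0 in at least 1 library.

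*Igf1r* (chr7:67952827-68233668, plus strand), the receptor, had the smallest difference of the 10: 95.3, 99.0 and 96.2 CPM in Atrx-cKO against 101, 101 and 88.2 CPM in controls, or 0.0022 (SE 0.080) as a log2 fold change. Its 95% interval, -0.18 to 0.19, was the narrowest of the 10, and the sign of so small a value turned with RLE scaling, with DESeq2 and with a skeletal muscle covariate. *Irs1* (chr1:82233101-82291416, minus strand), the adaptor, was measured at 79.3, 129 and 102 CPM in Atrx-cKO and 93.1, 133 and 119 CPM in control tibias. The groups overlapped, at a log2 fold change of -0.15 (95% interval -0.60 to 0.30) that was 0.0070 without Atrx-cKO replicate 1. Of the 9144 exonic bases of *Irs1*, 2822 lie under *Gm9747* on the opposite strand, which has no base outside *Irs1*. *Gm9747* still had 2405 to 4298 counts per library, so reads there were not all set aside as shared. How they were divided is not given in the sources used here, and the *Irs1* counts depend on it.

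*Igfals* (chr17:24865997-24882010, plus strand) encodes the acid-labile subunit that joins IGF1 and IGFBP3 in the circulating ternary complex and is made mainly in the liver. It was near the floor of useful counts, at 80, 73 and 95 counts in Atrx-cKO and 34, 101 and 71 counts in control tibias. The lowest value, control replicate 1, set its direction: the log2 fold change was 0.24 (95% interval -0.62 to 1.10), and -0.08 without that library.

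**Figure D2:**
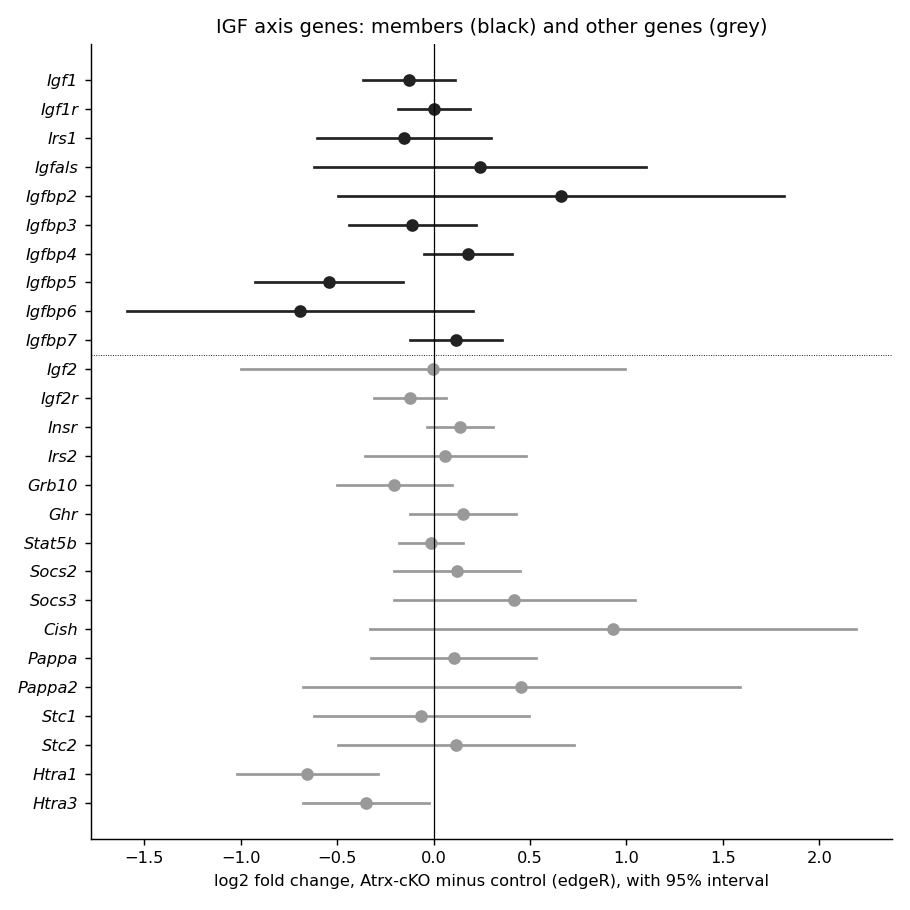
Log2 fold change of Atrx-cKO over control from edgeR (horizontal axis) with its 95% interval for the 10 genes (black) and 16 other IGF axis genes (grey), 3 libraries per genotype. Of the 10, *Igfbp5* alone has an unadjusted interval that leaves out 0, at -0.93 to -0.16, and among the grey genes *Htra1* and *Htra3* do.

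Levels were compared between genes only per kilobase of exon, as CPM per kb. In control tibias the order was *Igfbp4* (234 ± 9.87), *Igfbp7* (184 ± 17.0), *Igfbp5* (141 ± 10.8), *Igfbp3* (35.7 ± 3.17), *Irs1* (12.6 ± 2.22), *Igf1* (9.18 ± 0.256), *Igf1r* (5.76 ± 0.436), *Igfbp6* (5.45 ± 1.81), *Igfbp2* (2.62 ± 0.626) and *Igfals* (0.379 ± 0.166). Neighbors in this order did not overlap between their 3 control libraries, except *Igf1r* and *Igfbp6*. *Igfbp4*, *Igfbp7* and *Igfbp5* ranked 107, 146 and 202 among the 20636 tested genes, while *Igf1* ranked 5439. The order depends on the length used: on coding length alone *Igfbp5* stood above *Igfbp7*.

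The 6 binding protein mRNAs together came to 602 ± 43.4 CPM per kb of exon in Atrx-cKO and 603 ± 24.4 CPM per kb of exon in control tibias (SD, n = 3). This near equality holds for exon length only. The sum on coding length, which gives *Igfbp5* more weight, is not given here. Of the 6, 0 were called, and their shares of the sum were given no test. *Igfbp5* made up 13.6%, 16.0% and 18.4% of the sum in Atrx-cKO libraries and 23.3%, 25.2% and 21.7% in controls. *Igfbp4* made up 46.4%, 41.5% and 44.1% in Atrx-cKO libraries and 37.3%, 38.1% and 40.9% in controls. Both shares were without overlap between genotypes, as were the CPM values of the same 2 genes, so the shares add no separate result. Since shares add up to a whole, a lower share of one raises the others. *Igfbp7* took 33.2% ± 1.51 in Atrx-cKO and 30.5% ± 1.57 in control tibias, and *Igfbp3* 5.50% ± 1.05 and 5.92% ± 0.516. On coding length in place of exon length, *Igfbp7* took 10.3% and 8.91%, *Igfbp5* 28.3% and 39.2%, and *Igfbp4* 56.1% and 46.6%. *Igfbp6* and *Igfbp2* were each under 1.5% in every library on exon length. The summed level was 68.5 to 76.9 times that of *Igf1* per kb in Atrx-cKO and 64.5 to 66.9 times in control libraries, a ratio formed after the values were seen and given without a test.

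**Figure D3:**
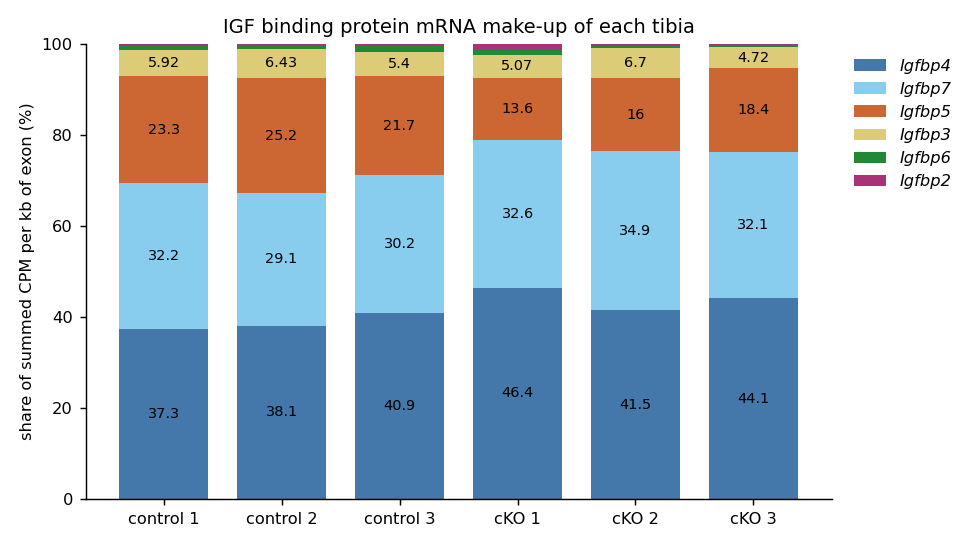
Share of each of 6 IGF binding protein mRNAs in their summed CPM per kb of exon (vertical axis, percent) in 3 control and 3 Atrx-cKO (cKO) libraries, 1 bar per library. The *Igfbp5* share runs from 13.6% to 18.4% in Atrx-cKO and from 21.7% to 25.2% in control libraries.

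Several of the 10 genes turned on the same library. Atrx-cKO replicate 1 was the lowest of the 6 libraries for 4 of the 10 (*Igf1*, *Irs1*, *Igfbp3* and *Igfbp5*), as it was for 18.9% of all tested genes, and the highest for *Igfbp2*. Over the 6 libraries, which share that one, the Pearson correlation of log2(CPM + 0.5) was 0.87 between *Igf1* and *Igfbp5* and -0.81 between *Igf1* and *Igfbp2*. Without Atrx-cKO replicate 1 these were 0.60 and 0.54, so the second changed sign. *Irs1* and *Igfbp2* were at -0.86, and at -0.76 without it. The genes most like *Igf1* over the 6 libraries were *Dock6* (r = 0.999), *Gm15655* (0.990) and *Hdac10* (0.988), among 119 of 16171 genes with r of 0.9 or more. Those most like *Igfbp4* were *Chd2* (0.990), *Entpd2* (0.980) and *Fam169a* (0.980), among 60 such genes.

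**Figure D4:**
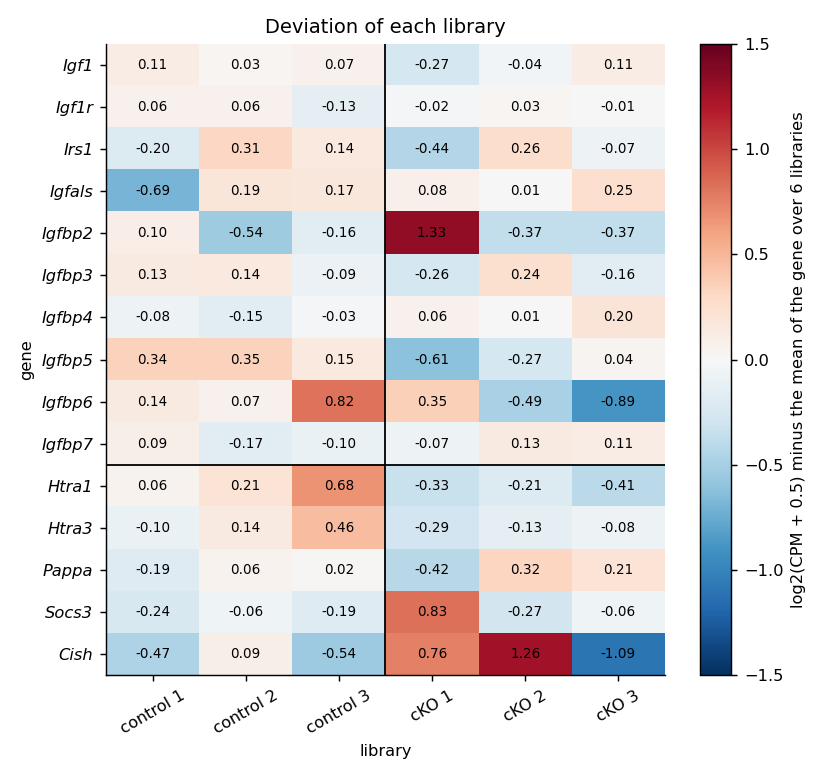
Deviation of each library from the mean over 6 libraries, in log2(CPM + 0.5) (color and printed value), for the 10 genes and 5 other IGF axis genes (rows) in control and Atrx-cKO (cKO) libraries (columns). Atrx-cKO replicate 1 holds the highest *Igfbp2* value, 1.33, and the lowest *Igfbp5* value, -0.61.

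Of 56 other genes of the IGF axis, 50 passed the filter and 0 were called by edgeR. At an unadjusted p under 0.05 edgeR passed 2 of the 50, near the 3.64% of all tested genes. Both were lower in Atrx-cKO, as were 2.05% of all tested genes. DESeq2 called 1 after adjustment, where it called 0.157% of all tested genes. The groups did not overlap for *Insr* (higher) and for *Igf2r*, *Pik3r2* and *Htra1* (lower), 4 of the 50, near the 8.31% of all tested genes. The median log2 fold change of the 50 was -0.01.

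The called gene was *Htra1*, a secreted serine protease that cuts matrix proteins and IGF binding proteins, IGFBP5 among them. It was measured at 56.4, 61.5 and 53.3 CPM in Atrx-cKO and 73.9, 82.0 and 114 CPM in control tibias. Every Atrx-cKO library was below every control. The log2 fold change was -0.65 (SE 0.16, 95% interval -1.02 to -0.29), with an unadjusted p of 0.00357 and an adjusted p of 0.992 in edgeR and an adjusted p of 0.0443 in DESeq2. Its family member *Htra3*, named after its value was seen, had a log2 fold change of -0.35 (95% interval -0.68 to -0.02) with an unadjusted edgeR p of 0.0387 and overlapping groups. For both, the highest library was control replicate 3, which had the highest muscle and tendon marker sums. Without that library *Htra1* was at -0.46 (unadjusted p of 0.00231) and *Htra3* at -0.20 (unadjusted p of 0.107) in edgeR. With the log2 muscle marker sum as a covariate, *Htra1* was at -0.54 (SE 0.097) and *Htra3* at -0.28 (SE 0.13). Neither gene was called after adjustment in these edgeR fits. The DESeq2 call of *Htra1* was lost in 5 of the 6 fits that left out 1 library, at adjusted p of 0.133 to 0.508, and kept only without control replicate 1.

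Neither PAPP-A protease gene passed the test. *Pappa*, the protease of IGFBP4, had a log2 fold change of 0.11 (95% interval -0.32 to 0.53), and *Pappa2*, which cuts IGFBP3 and IGFBP5, 0.46 (-0.68 to 1.59). Their inhibitors *Stc1* and *Stc2* were at -0.06 (-0.62 to 0.49) and 0.12 (-0.50 to 0.73).

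The other ligand, *Igf2*, was at 1.17 ± 0.678 CPM in Atrx-cKO and 1.17 ± 0.330 CPM in control tibias. *Igf2r*, which clears IGF2, was at -0.12 (95% interval -0.31 to 0.06) and the insulin receptor *Insr* at 0.14 (-0.04 to 0.31) on the log2 scale. *Irs2* was at 0.06 (-0.36 to 0.48), and *Grb10*, an adaptor that restrains both receptors, at -0.20 (-0.50 to 0.10). *Igfbp1*, a binding protein of the liver, had 0 counts in all 6 libraries.

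The growth hormone genes that act upstream of *Igf1* were likewise not called. The receptor *Ghr* was at 0.15 (95% interval -0.12 to 0.43), the signal transducer *Stat5b* at -0.01 (-0.18 to 0.15) and the feedback inhibitor *Socs2* at 0.12 (-0.20 to 0.45). *Cish*, another feedback inhibitor, named after its values were seen, was measured at 12.7, 18.2 and 3.16 CPM in Atrx-cKO and 5.15, 7.79 and 4.87 CPM in control tibias. Its Atrx-cKO values lay on both sides of the controls. *Socs3*, likewise named, was at 55.3 CPM in Atrx-cKO replicate 1 and between 25.5 and 29.6 CPM in the other 5 libraries. All 24 genes listed for the intracellular relay from SHC and PI3K to AKT, mTOR and FOXO were tested. Of these, 0 had an unadjusted edgeR p under 0.05, a count near the background of 3.64%, with log2 fold changes from -0.21 to 0.12. The list holds *Pdk1*, a mitochondrial kinase outside this relay, besides the relay kinase *Pdpk1*.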

How the data were processed

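Whole-tibia polyA RNA of 3 Atrx-cKO and 3 control mice was sequenced as paired-end reads of 150 bases. The authors deposited raw counts per gene, 1 table per library. The submitters' processing notes name GRCm38 and DESeq2, and the aligner and counter are not given in the sources used here. Summary rows, the largest being reads on no feature (51.6% to 52.4% of a table), did not enter library sizes. Symbols and positions came from GENCODE M21 (GRCm38).

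Counts were fitted with edgeR 4.0.16 in R 4.3.3 (TMM, filterByExpr at defaults, quasi-likelihood test, genotype alone), with Benjamini-Hochberg adjustment over 20636 genes and a threshold of 0.05. DESeq2 1.42.0 was the alternative. CPM used TMM-scaled library sizes. Standard errors came from the F statistic. The code was tested on simulated data. The 10 genes and all lists were chosen with earlier results of these data known. The genes named were the 10, 14 others of a list of 56 by role, any list gene called, genes next to *Igfbp6* and the 3 most correlated genes. *Htra3*, *Cish*, *Socs3*, *Pik3r2*, the library-specific correlations and the upstream windows shown were chosen after values were seen. Separate mice are labeled as replicates. The labels do not say whether replicate numbers pair mice across genotypes, and the main fit did not pair them.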

Additional observations from a re-analysis of the deposited data

How the results depend on the processing

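No binding protein, receptor, ligand or adaptor among the 10 genes was called under edgeR with RLE or upper quartile scaling, marker genes out of library sizes, no filter, a minimum of 10 counts, a muscle covariate or the replicate block, nor by DESeq2 on all libraries. In DESeq2 fits without 1 library each, added after seeing the data, 0 to 1 of the 10 were called (*Igfbp5*, without Atrx-cKO replicate 3), and 0 to 3 of the other IGF axis genes: *Cish* without Atrx-cKO replicate 3, and *Grb10*, *Htra1* and *Htra3* without control replicate 1, a fit that called 519 genes in all against 23 to 37 in the other 5. DESeq2 on all libraries called 1 of the other genes, *Htra1*. Same-numbered mice did not deviate together (correlations of deviations -0.0032, 0.108 and -0.0996), and with the replicate as a block *Igfbp5* was at -0.56 (edgeR adjusted p = 0.974), 0 of the 10 and 0 of the other axis genes were called, and 0 genes in all against 3 without it.

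The sign of *Igf1r* turned to -0.00012 with RLE scaling, -0.00051 with DESeq2 and -0.025 with the muscle covariate, and that of *Igf2* to 0.0077 with the covariate. With libraries left out in turn, the log2 fold changes that changed sign ran in edgeR from -0.072 to 0.035 for *Igf1r*, -0.35 to 0.0070 for *Irs1*, -0.22 to 0.95 for *Igfbp2*, -0.083 to 0.45 for *Igfals*, -0.59 to 0.26 for *Igf2*, -0.10 to 0.26 for *Irs2*, -0.061 to 0.0065 for *Stat5b*, -0.046 to 0.30 for *Pappa*, -0.035 to 0.77 for *Pappa2*, -0.35 to 0.13 for *Stc1* and -0.17 to 0.32 for *Stc2*. DESeq2 gave -0.068 to 0.036, -0.34 to 0.010, -0.22 to 0.95, -0.082 to 0.45, -0.59 to 0.26, -0.10 to 0.26, -0.061 to 0.0080, -0.040 to 0.30, -0.037 to 0.78, -0.34 to 0.13 and -0.17 to 0.32 in the same order. The cause was not tested.

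With coding length in place of exon length, the shares in Atrx-cKO and control tibias were 56.1% and 46.6% for *Igfbp4*, 28.3% and 39.2% for *Igfbp5*, 10.3% and 8.91% for *Igfbp7* and 0.217% and 0.320% for *Igfbp6*, and in controls 4.78% for *Igfbp3* and 0.198% for *Igfbp2*. With 3 mice per genotype, the 95% intervals allow changes of 0.708-fold to 3.53-fold for *Igfbp2* and 0.332-fold to 1.15-fold for *Igfbp6*.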
